A study of Mus musculus with 31 samples.

Results

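The injury response of control ependymal cells was read from 4 bulk RNA libraries, 2 taken 5 dpi and 2 taken without injury, which were chosen by their column names in the table of normalised counts. They are 4 of the 31 samples of the series, and all genes of the table were included. The cells were sorted by flow cytometry from digested spinal cord of C57BL/6 mice and labelled ependymal, and each library was made from a small pool of cells by Smart-seq2, a full-length RNA method. Mice at 5 dpi and mice without injury had the same genotype, Foxj1_tdT, whose name joins Foxj1, a gene of ciliated cells, to the red fluorescent reporter tdTomato. The label dpi was read as days after injury. Used beside them were 2 Foxj1_tdT libraries at 1 dpi and 6 of Foxj1_Olig2_tdT mice, whose name adds the transcription factor Olig2: 2 at 5 dpi, 2 at 1 dpi and 2 without injury. All libraries at 1 dpi served the shared estimate of spread, and the Foxj1_tdT ones were also set against 5 dpi. Neither the age of the mice nor the kind or level of injury is in the labels. Nothing there tells whether 2 replicates are 2 animals, and the tests below therefore rest on library-to-library spread that could be technical.

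Ependymal cells form the epithelium around the spinal cord's central canal, where their motile cilia beat in the cerebrospinal fluid. Assembly of those cilia is directed by transcription factors such as Foxj1, Myb and the RFX family, which act on a large set of axonemal genes. Rarely dividing in the healthy cord, the cells are known to enter the cell cycle after injury, and some of their progeny move into the lesion and take part in the glial scar.

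The ependymal label was checked against 25 markers, all with a value above 0 in both groups. They took 1.91% and 2.06% of summed values at 5 dpi, against 2.25% and 2.31% in uninjured cells. Without Vim, a filament that is also a gliosis gene, the share was 0.958% and 1.04% at 5 dpi, against 2.17% and 2.22% in uninjured cells. Most ependymal markers are cilia genes and fell, as described below: 14 were lower (7 without 5 dpi replicate 1, 8 without replicate 2) and 1, Vim, was higher. Foxj1 remained well detected, with 1280.1 and 1252 at 5 dpi, against 2708 and 3055 in uninjured cells. Olig2 read 17.4 and 195 at 5 dpi, against 4.5 and 4.4 in uninjured cells (log2 fold change 3.46 ± 1.25, adjusted p = 0.135), and was not called, although it passed with the uninjured replicates entered as 2 libraries (adjusted p = 0.027) and without 5 dpi replicate 1 (adjusted p = 0.037).

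Library sums of normalised counts lay between 12601290 and 13878102 over the 12 bulk RNA libraries, with 14395 to 15379 genes above 0. True read depth is unknown. The uninjured replicates were nearly identical: 0.442% of 11083 genes differed more than 2-fold between them, against 10.5% to 24.8% in the other 5 pairs. They were therefore entered as 1 library, and the test borrows its spread from the other groups. A gene was called at an adjusted p under 0.05 (limma, Benjamini-Hochberg over all 15811 genes tested), and fold changes are on the scale of log2(normalised count + 1), which understates change in genes near 0.

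Of 15811 genes, 886 were higher at 5 dpi (5.6%) and 407 were lower (2.57%), or 8.18% in all. The median log2 fold change of all genes tested was 0.02, so changes are read against a baseline close to 0. In each of the 1293 called genes the 2 groups did not overlap, as was so for 71.3% of all genes tested, and the smallest called log2 fold change was 0.60 in size. Fewer cells with a transcript and less RNA per cell cannot be told apart in these bulk libraries. Called genes included 190 listed at 0 in both uninjured libraries and 48 listed at 0 in both 5 dpi libraries. The uninjured Foxj1_tdT pair lay below all 10 other libraries in 484 of the 886 higher genes (54.6%, against 7.11% of genes not called). It lay above all 10 in 196 of the 407 lower genes (48.2%, against 11.7%). Of the 190 genes, 89 were above 0 in all 10. What part of the calls is particular to this pair was not tested. With the uninjured replicates entered as 2 libraries 3642 genes passed (23%), 2186 higher (13.8%) and 1456 lower (9.21%), with 1292 of the 1293 among them. With the 6 Foxj1_tdT libraries alone limma called 0 genes (lowest adjusted p = 0.0641, 3507 at an unadjusted p under 0.05). Without 5 dpi replicate 1 the count was 601, and without replicate 2 it was 625. Leaving that smallest fit aside, 391 genes (300 higher, 91 lower) were called under all 10 other alternatives, and most examples below are among them.

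**Figure D1:**
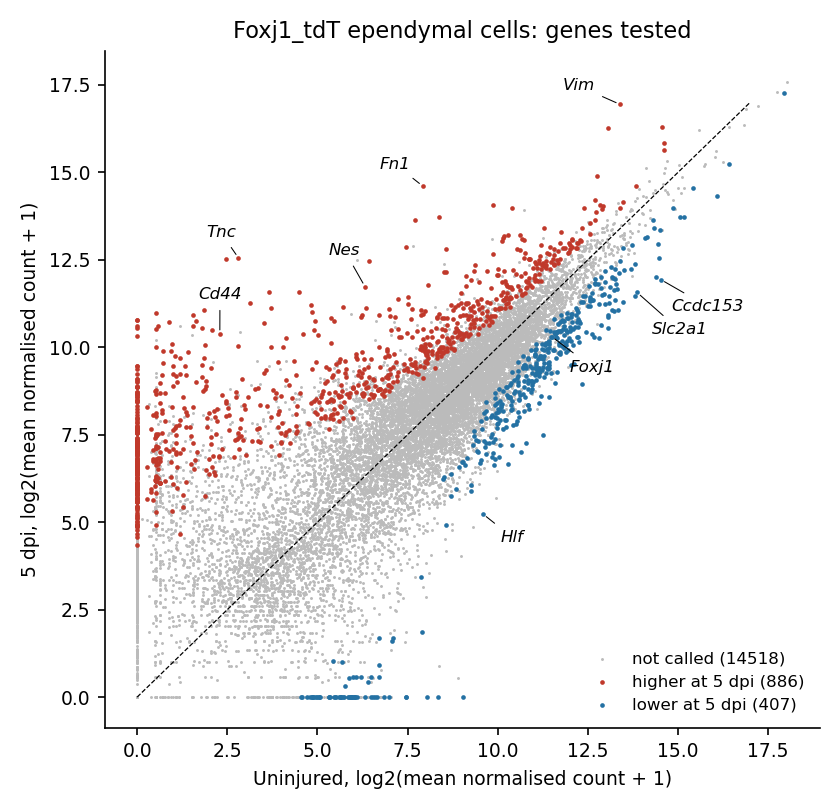
Mean level of each gene tested at 5 dpi (vertical axis) and in uninjured cells (horizontal axis), both as log2(mean normalised count + 1) over 2 libraries, with equality as the dashed line. The 886 higher genes reach far to the left, where uninjured levels are near 0, while the 407 lower genes follow the diagonal at high levels, apart from a row at 0.

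Genes of the extracellular matrix rose, several of them from near 0. Of 38 matrix glycoprotein genes 11 rose and no other was called, with a median log2 fold change of 2.38 over the list. Fibronectin, Fn1, which links cells to the matrix through integrins, read 34343 and 15673 at 5 dpi, against 243 and 239 in uninjured cells (log2 fold change 6.58 ± 0.68, adjusted p = 0.00227). Both 5 dpi libraries stood far above both uninjured ones, although they differed from each other by over 2-fold. The tenascin gene Tnc, typical of scars and stem cell niches, had 7766 and 4276 at 5 dpi, against 6.7 and 5.3 in uninjured cells. Sparc, a collagen-binding protein, was abundant from the start and rose to 32083 and 29351 at 5 dpi, against 6974 and 6782 in uninjured cells (log2 fold change 2.16 ± 0.30, adjusted p = 0.00645). Fbln2, a fibulin of elastic fibres, read 2099.7 and 1774 against 0 and 3.8, and Smoc2, a matricellular protein, read 904 and 1158 against 0 and 0.9, in the same order of groups. Both were close to undetected in uninjured Foxj1_tdT cells. In uninjured Foxj1_Olig2_tdT cells Smoc2 read 113 and 325, while Fbln2 read 0 and 1.4.

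Collagens rose in part. Of 26 fibrillar and other collagen genes 6 were higher and 1 was lower, and the list's median log2 fold change was 2.88. Col12a1, which decorates collagen fibrils, read 2602 and 1895 at 5 dpi, against 7.7 and 16.4 in uninjured cells (log2 fold change 7.41 ± 0.74, adjusted p = 0.00218). The type VI chain Col6a1 had 2887 and 1119 at 5 dpi, against 0 and 0.9 in uninjured cells, and Col8a1, a network-forming collagen, had 3392 and 2737 at 5 dpi, against 15.7 and 27.3 in uninjured cells. Chains of fibrillar collagen I were higher as well, with Col1a2 at 5438 and 3701 at 5 dpi, against 383 and 349.5 in uninjured cells (adjusted p = 0.0392). Col8a2, the partner chain of Col8a1 and the exception, fell to 556 and 660.5 at 5 dpi, against 2112 and 2265 in uninjured cells (adjusted p = 0.0228), and was picked out after its values were seen. In the basement membrane list 5 of 26 genes rose (3 without 5 dpi replicate 1, 3 without replicate 2), including 3 chains of collagen IV. Col4a6 read 638 and 766 at 5 dpi, against 1.1 and 0.9 in uninjured cells (log2 fold change 8.45 ± 0.78, adjusted p = 0.00173), and Lama1, a laminin chain of embryonic basement membranes, had 87 and 221 at 5 dpi and was listed at 0 in both uninjured libraries (adjusted p = 0.00826).

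Enzymes that process collagen counted 6 higher of 25 (2 without 5 dpi replicate 1, 3 without replicate 2). The lysyl oxidase Loxl1, which crosslinks elastin and collagen, read 1105 and 787 at 5 dpi, against 0 and 1.8 in uninjured cells. Bmp1, which cleaves the ends of procollagens, had 2155 and 2578 at 5 dpi, against 475 and 469.5 in uninjured cells (log2 fold change 2.32 ± 0.35, adjusted p = 0.00826). Proteoglycan genes counted 7 higher and 1 lower of 36. Versican, Vcan, a hyaluronan-binding proteoglycan of provisional matrix, read 2097 and 1030.2 at 5 dpi, against 0 and 1 in uninjured cells (log2 fold change 9.94 ± 0.61, adjusted p = 0.000384). Gpc1, a cell-surface glypican, rose from a moderate level, with 734 and 723 at 5 dpi, against 49 and 40.3 in uninjured cells. Tnfaip6, which modifies hyaluronan in inflamed tissue, had 148 and 266 at 5 dpi and was listed at 0 in both uninjured libraries (adjusted p = 0.00293). Prelp, the lower one and named here for that reason, read 4845 and 4879.9 at 5 dpi, against 9480.3 and 9874 in uninjured cells (adjusted p = 0.0249).

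Among matrix proteases and their inhibitors 7 of 39 rose (2 without 5 dpi replicate 1, 5 without replicate 2), with a list median of 1.40. The metalloprotease inhibitor Timp1 had 2339 and 1077 at 5 dpi, against 29.9 and 29.6 in uninjured cells (log2 fold change 5.69 ± 0.90, adjusted p = 0.00932), and Serpinf1, a secreted serpin, had 301 and 324 at 5 dpi, against 0 and 1.9 in uninjured cells. A secreted protease and a protease inhibitor also stood among the genes listed at 0 without injury. Htra4, a serine protease, read 1148 and 2401 at 5 dpi and A2m, the broad protease inhibitor alpha-2-macroglobulin, read 1208 and 2316, and both were listed at 0 in each uninjured library (adjusted p = 0.00285 for Htra4 and 0.00706 for A2m). Of 25 integrin genes 2 rose (1 without 5 dpi replicate 1, 2 without replicate 2), or 8% called, close to the 8.18% of all genes tested. They were the fibronectin receptor chain Itga5 and the collagen receptor chain Itga1. Itga5 read 846 and 326 at 5 dpi, against 2.2 and 0.9 in uninjured cells (adjusted p = 0.00514), and Itga1 read 368 and 141 at 5 dpi, against 5 and 2 in uninjured cells (adjusted p = 0.0282).

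Markers of matrix-making stromal cells moved with these lists. Of 10 tested fibroblast and meningeal markers 3 were higher, all of them matrix genes (Col1a1, Col1a2 and Postn). The list's share of summed values was 0.0537% and 0.0374% at 5 dpi, against 0.00451% and 0.00399% in uninjured cells. Of the defining markers, Pdgfra read 0 and 1 at 5 dpi and was listed at 0 in both uninjured libraries, while Dcn read 108 and 34.6 at 5 dpi, against 1.5 and 0 in uninjured cells. For 8 tested pericyte and smooth muscle markers the share was 0.315% and 0.0487% at 5 dpi, against 0.0151% and 0.0159% in uninjured cells, and none was called (5 were higher at an unadjusted p under 0.05, limma). Nearly all of it came from Acta2, with 27906 and 3294 at 5 dpi, against 1699 and 1669.9 in uninjured cells, and Tagln, with 12869 and 2397 at 5 dpi, against 176 and 227 in uninjured cells, both of which were far higher in replicate 1. The part of such cells in the matrix changes was not tested.

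**Figure D2:**
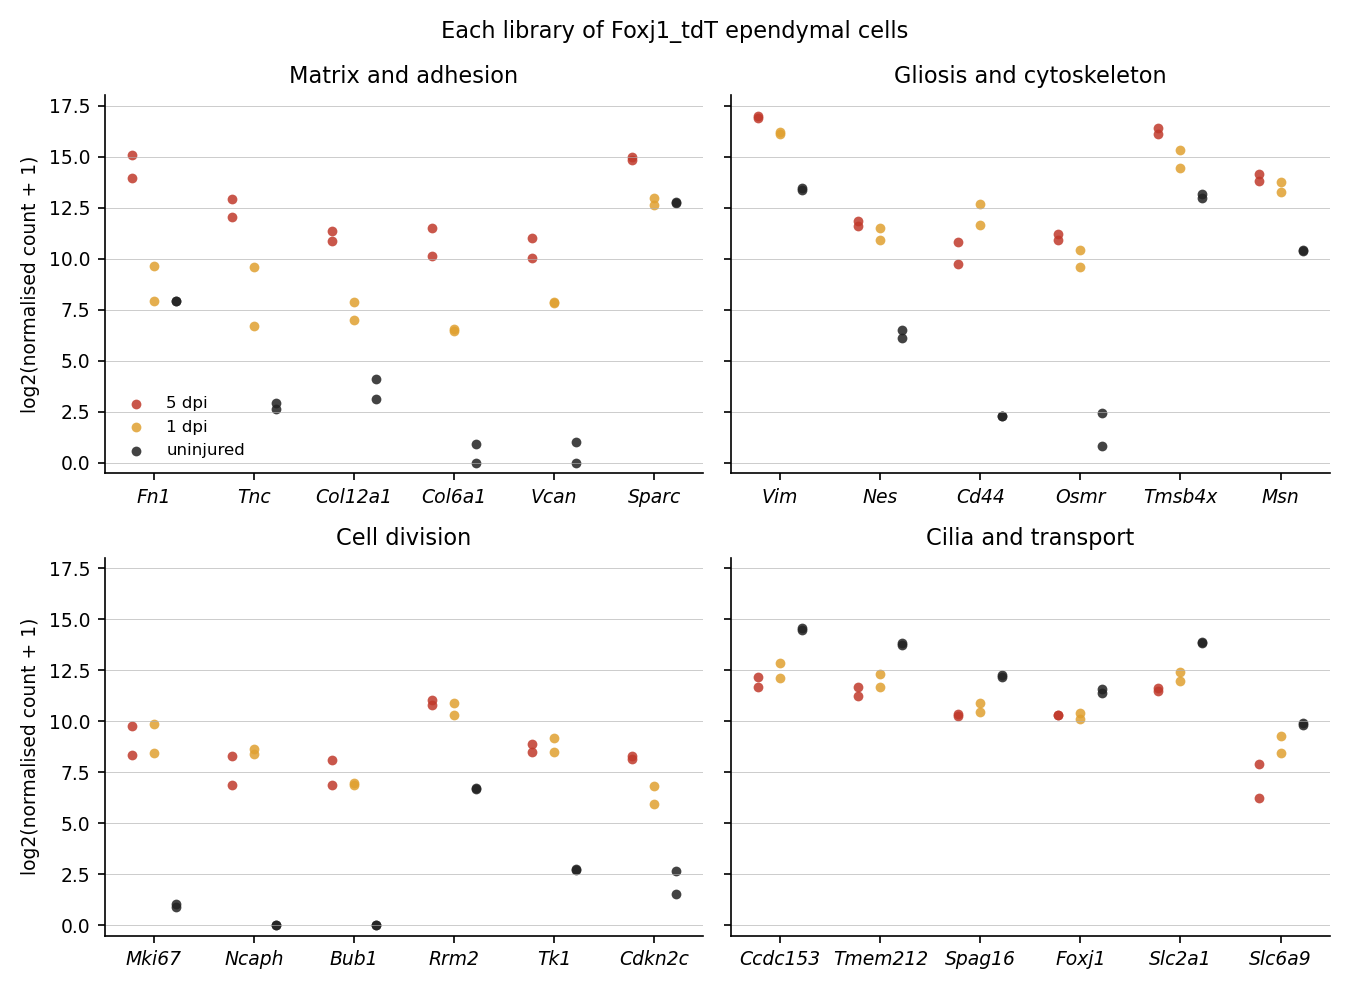
Level of 24 named genes in each Foxj1_tdT library, as log2(normalised count + 1), with 5 dpi on the left of each gene, 1 dpi in the middle and uninjured on the right. Matrix genes at 5 dpi sit above both other groups, whereas most division, cilia and transport genes at 5 dpi lie close to their 1 dpi values. Cdkn2c lies above its 1 dpi values and Slc6a9 below them.

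Reactive gliosis genes formed the second large group. Of 33 members 15 rose (9 without 5 dpi replicate 1, 14 without replicate 2) and no other was called, with a median log2 fold change of 3.55. Intermediate filaments led: vimentin, Vim, read 123095 and 129287 at 5 dpi, against 10378 and 11101 in uninjured cells (log2 fold change 3.55 ± 0.16, adjusted p = 0.000144), the lowest adjusted p among named genes. Nestin, Nes, a filament of neural progenitors, had 3119 and 3677 at 5 dpi, against 68.9 and 88.9 in uninjured cells (log2 fold change 5.41 ± 0.45, adjusted p = 0.00102), and Gfap, the astrocyte filament, had 23346 and 10825 at 5 dpi, against 959 and 919 in uninjured cells (log2 fold change 4.08 ± 0.81, adjusted p = 0.02). The libraries agreed closely for Vim and Nes, while Gfap in replicate 1 was over 2-fold that of replicate 2. The hyaluronan receptor Cd44 read 1792 and 867 at 5 dpi, against 3.9 and 3.9 in uninjured cells (log2 fold change 7.99 ± 0.53, adjusted p = 0.000497), and Osmr, the oncostatin M receptor that signals through gp130, read 2345 and 1960.3 at 5 dpi, against 0.8 and 4.4 in uninjured cells (log2 fold change 9.22 ± 0.67, adjusted p = 0.000657). The small heat shock protein Hspb1 was higher too, at 22132 and 5069.9 at 5 dpi, against 314 and 342 in uninjured cells (adjusted p = 0.00826).

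Calcium-binding S100 proteins, annexins and galectins counted 7 higher and 1 lower of 20. Lgals1, galectin 1, read 14738 and 10605 at 5 dpi, against 182 and 230.1 in uninjured cells (log2 fold change 5.92 ± 0.53, adjusted p = 0.00163), and S100a6, calcyclin, read 10133 and 4832 at 5 dpi, against 179 and 171 in uninjured cells. S100a10 and S100a11 were already present in uninjured cells and rose, with S100a11 at 10386 and 6309 at 5 dpi, against 1079.5 and 1139 in uninjured cells (log2 fold change 2.87 ± 0.37, adjusted p = 0.00444). Anxa3, a phospholipid-binding annexin, had 1932 and 1500.1 at 5 dpi, against 2.4 and 1.8 in uninjured cells. Lgals3, which is also a marker of infiltrating myeloid cells, read 9840.4 and 4497 at 5 dpi, against 1536 and 1424 in uninjured cells (adjusted p = 0.043). It was the 1 called gene of 7 tested myeloid markers, whose share was 0.0768% and 0.0373% at 5 dpi, against 0.0116% and 0.011% in uninjured cells. Of these 7 markers 6 had a log2 fold change above 0, with a median of 2.17, and 2 were higher at an unadjusted p under 0.05 (limma). In uninjured cells 4 of them were listed at 0 in both libraries. Lyz2 was at 0 in replicate 1 at 5 dpi and in both uninjured libraries, and the microglial gene P2ry12 was listed at 0 in all 4 libraries. The part of myeloid cells in these changes was not tested.

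The actin cytoskeleton changed in 15 of 45 genes, all upward, with a median of 1.40. Thymosin beta 4, Tmsb4x, which sequesters actin monomers, was among the most abundant, at 86702 and 69919 at 5 dpi, against 7925 and 9110.5 in uninjured cells (log2 fold change 3.19 ± 0.31, adjusted p = 0.00218). Its paralog Tmsb10 had 6582 and 6444 at 5 dpi, against 786 and 1083 in uninjured cells, and these paralogs can share reads where the counting does not separate them. Moesin, Msn, which ties actin to the membrane, read 18017 and 14124 at 5 dpi, against 1396 and 1308 in uninjured cells (log2 fold change 3.56 ± 0.29, adjusted p = 0.00102), and the depolymerising factor cofilin 1, Cfl1, read 16955 and 15102 at 5 dpi, against 5211 and 5621 in uninjured cells. Gelsolin, Gsn, an actin-severing protein, was almost undetected in uninjured Foxj1_tdT cells and rose to 540.5 and 312 at 5 dpi, against 0 and 0.8. Cobl, an actin nucleator, had 428 and 984 at 5 dpi and was listed at 0 in both uninjured libraries (adjusted p = 0.000729). Both were present in uninjured Foxj1_Olig2_tdT cells, with Gsn at 177 and 157.5 and Cobl at 76.9 and 161.

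Genes of motile cilia fell together. Of 68 radial spoke, central pair and other axoneme genes 23 were lower and none was called higher, and 66 had a log2 fold change below 0, with a median of -1.18. Of 36 axonemal dynein and assembly genes 8 were lower, 32 lay below 0 and the median was -1.13. Called falls included Ccdc153, a coiled-coil gene of ciliated cells, at 3259.8 and 4569.5 at 5 dpi, against 22994 and 24154 in uninjured cells (log2 fold change -2.61 ± 0.32, adjusted p = 0.00376), and the kinesin Kif6, at 314 and 335 at 5 dpi, against 1846 and 1828 in uninjured cells (log2 fold change -2.50 ± 0.38, adjusted p = 0.00833). Spag16, a central pair protein, read 1236 and 1289.8 at 5 dpi, against 4911 and 4555 in uninjured cells (log2 fold change -1.91 ± 0.25, adjusted p = 0.005), and Cfap126, which positions basal bodies and axonemes, read 3980.2 and 4012 at 5 dpi, against 9648 and 9828 in uninjured cells. Dynein arm genes were among them: the inner arm chain Dnali1 had 2374 and 2223 at 5 dpi, against 5702 and 5836 in uninjured cells (adjusted p = 0.0225), and the outer arm intermediate chain Dnaic1 had 809.9 and 1134 at 5 dpi, against 3931 and 3913 in uninjured cells (adjusted p = 0.0248). In all of these both 5 dpi libraries were below both uninjured ones. The groups also did not overlap in any called gene, and in 71.3% of all genes tested, so this adds nothing to the calls. Each of these cilia genes remained well above the filter minimum of 10.

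The counts of cilia genes depended on single libraries. Without 5 dpi replicate 1 the lower genes numbered 9 of 68 and 2 of 36, and without replicate 2 they numbered 15 of 68 and 0 of 36 (limma, with 17 lower at an unadjusted p under 0.05). Median log2 differences from the uninjured mean were closer, at -1.24 and -1.14 for the axoneme list and -1.04 and -1.10 for the dynein list in 5 dpi replicates 1 and 2.

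Upstream of the axoneme, 2 of 17 ciliogenesis regulators were lower and the list median was -0.35. Foxj1 fell (log2 fold change -1.19 ± 0.21, adjusted p = 0.0133), and Myb, needed for the multiciliated programme, read 542 and 807 at 5 dpi, against 2767 and 2721 in uninjured cells (log2 fold change -2.05 ± 0.34, adjusted p = 0.0111). The RFX factors, which bind X-box sequences in cilia promoters, were not called, with Rfx2 at 885 and 1267 at 5 dpi, against 1881 and 1787 in uninjured cells (adjusted p = 0.283), and Rfx3 at 1765 and 2099 at 5 dpi, against 2504 and 2396 in uninjured cells (adjusted p = 0.685). In the intraflagellar transport and BBSome list 5 of 41 genes were lower and 1 higher, with 2 lower without 5 dpi replicate 1 and 0 without replicate 2 (limma, 13 lower at an unadjusted p under 0.05). Ift88, a core train subunit, had 799 and 595 at 5 dpi, against 2724 and 2618 in uninjured cells (log2 fold change -1.95 ± 0.43, adjusted p = 0.0303), while the motor subunit Kif3b, which also serves other cargo, had 431 and 462 at 5 dpi, against 95.2 and 116 in uninjured cells (log2 fold change 2.07 ± 0.49, adjusted p = 0.0382).

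Promoters of the axoneme genes are shown because these members moved together. The motif searched was the core of the RFX X-box, GTTGCC, on both strands (GGCAAC on the other) in the 300 bases around each start in RefSeq (build GRCm38.p6). It was present in 41 of the 84 matched members of both axoneme lists (48.8%), which had 104 tested members, and in 1740 of 11614 tested genes with a promoter (15%). Among called members 11 of 25 held it, and among the others 30 of 59. The 3 called members of lowest adjusted p that hold it near the start are printed from 100 bases before to 20 after the start, with that core in capitals.
Fam183b, chr11:58801941-58802060, minus strand: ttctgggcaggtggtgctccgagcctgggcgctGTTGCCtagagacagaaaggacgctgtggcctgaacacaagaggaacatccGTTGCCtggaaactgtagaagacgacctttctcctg
Pifo, chr3:106001478-106001597, minus strand: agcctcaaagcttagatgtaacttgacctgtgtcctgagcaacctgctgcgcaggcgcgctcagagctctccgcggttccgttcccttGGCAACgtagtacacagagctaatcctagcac
Tekt1, chr11:72361863-72361982, minus strand: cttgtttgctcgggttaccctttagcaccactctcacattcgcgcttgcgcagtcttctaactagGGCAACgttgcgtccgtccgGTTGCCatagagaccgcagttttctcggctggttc
Fam183b, a gene of ciliated cells, read 3697 and 4321 at 5 dpi, against 9682 and 9258 in uninjured cells (log2 fold change -1.24 ± 0.20, adjusted p = 0.00986). Pifo, which acts at the ciliary base, read 2903 and 2289.8 at 5 dpi, against 6602 and 6128 in uninjured cells, and tektin 1, Tekt1, a filament of the axoneme, read 1698 and 1734 at 5 dpi, against 4965 and 4902 in uninjured cells. A match is a run of letters only, and whether a factor bound these promoters was not measured.

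Genes of cell division rose in part. Of 76 mitosis and cytokinesis genes 22 were higher (13 without 5 dpi replicate 1, 18 without replicate 2) and no other was called, with 69 above 0 and a median of 2.84. The proliferation marker Mki67 read 884 and 319 at 5 dpi, against 1.1 and 0.9 in uninjured cells (log2 fold change 8.06 ± 0.99, adjusted p = 0.00376). Condensin subunits were among the clearest: Ncaph had 314 and 118 at 5 dpi and Ncapg had 180.5 and 203, and both were listed at 0 in the 2 uninjured libraries (adjusted p = 0.00299 and 0.00371). The checkpoint kinase Bub1 had 271 and 116 at 5 dpi and was likewise at 0 without injury. Stathmin, Stmn1, which destabilises microtubules, was present throughout and read 4609 and 4594 at 5 dpi, against 668 and 636 in uninjured cells (log2 fold change 2.82 ± 0.28, adjusted p = 0.00218). The list's library medians were 3.81 in replicate 1 and 2.37 in replicate 2 above the uninjured mean.

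Of 54 DNA replication genes 12 were higher (7 without 5 dpi replicate 1, 7 without replicate 2) and 1 lower, with a median of 0.87. The ribonucleotide reductase subunit Rrm2 read 2106 and 1806 at 5 dpi, against 105 and 101 in uninjured cells (log2 fold change 4.23 ± 0.60, adjusted p = 0.00647), and thymidine kinase, Tk1, read 474 and 366 at 5 dpi, against 5.5 and 5.9 in uninjured cells (log2 fold change 5.96 ± 0.65, adjusted p = 0.00274). The licensing factor Cdc6 had 317 and 105 at 5 dpi and was listed at 0 in both uninjured libraries (adjusted p = 0.005). Chaf1a, a subunit of the chromatin assembly factor and the exception, read 140.3 and 90.6 at 5 dpi, against 1035 and 1081 in uninjured cells (adjusted p = 0.00814), and is named after its values were seen. Among G1 cyclins, kinases and E2F factors 5 of 22 rose, including Myc, at 1128 and 593 at 5 dpi, against 2.1 and 0 in uninjured cells (log2 fold change 8.64 ± 1.36, adjusted p = 0.00928). That count was 0 without 5 dpi replicate 1 (limma, 5 higher at an unadjusted p under 0.05) and 1 without replicate 2. Of 13 CDK inhibitors and RB family genes 1 was called: Cdkn2c, an inhibitor of CDK4 and CDK6, read 288 and 314 at 5 dpi, against 1.9 and 5.4 in uninjured cells (log2 fold change 6.02 ± 0.75, adjusted p = 0.00392).

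Mitotic promoters are shown for the same reason as the axonemal ones. The cell cycle genes homology region, TTTGAA on either strand (TTCAAA on the other), was found in 43 of 64 matched promoters of the 76 mitosis genes (67.2%) and in 1758 of 11614 tested genes with a promoter (15.1%). Called members held it in 13 of 19 cases and the others in 30 of 45. In the DNA replication list 8 of 44 matched promoters held it (18.2%). The 3 called genes of lowest adjusted p that hold it near the start follow, over the same stretch, with the element in capitals.
Ncapg, chr5:45669825-45669944, plus strand: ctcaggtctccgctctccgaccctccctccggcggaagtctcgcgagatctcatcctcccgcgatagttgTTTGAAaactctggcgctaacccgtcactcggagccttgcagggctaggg
Mki67, chr7:135716360-135716479, minus strand: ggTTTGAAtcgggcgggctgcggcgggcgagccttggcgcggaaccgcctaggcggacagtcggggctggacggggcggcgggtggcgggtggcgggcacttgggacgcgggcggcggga
Ube2c, chr2:164769829-164769948, plus strand: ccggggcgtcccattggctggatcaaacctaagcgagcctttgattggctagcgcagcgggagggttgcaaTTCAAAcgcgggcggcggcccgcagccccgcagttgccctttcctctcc
Ube2c, the ubiquitin-conjugating partner of the anaphase-promoting complex, read 381 and 186 at 5 dpi, against 2.2 and 0.9 in uninjured cells (adjusted p = 0.00953). No binding was measured at these sites.

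Cytosolic ribosomal protein genes were called in large number: 42 of 84 were higher (16 without 5 dpi replicate 1, 24 without replicate 2) and no other was called, with 82 above 0. The change was small in size, with a median log2 fold change of 0.75, and 5 dpi replicates 1 and 2 had medians of 0.79 and 0.70. Rpl32 read 7899 and 7058 at 5 dpi, against 2630.1 and 2926 in uninjured cells (log2 fold change 1.43 ± 0.17, adjusted p = 0.00374), and Rpl39 read 5929 and 5909.8 at 5 dpi, against 1827 and 1971 in uninjured cells (log2 fold change 1.64 ± 0.19, adjusted p = 0.00342). Many ribosomal protein genes have processed pseudogenes, so their levels are uncertain where reads were split. Genes of the nuclear-encoded respiratory chain counted 9 higher (2 without 5 dpi replicate 1, 2 without replicate 2) and 1 lower of 82 with a median of 0.25, and genes of the unfolded protein response and secretory pathway counted 5 higher (3 without 5 dpi replicate 1, 4 without replicate 2) and 1 lower of 42. Ckap4, a protein of rough endoplasmic reticulum sheets, read 878 and 636 at 5 dpi, against 47.9 and 47.1 in uninjured cells (log2 fold change 3.95 ± 0.62, adjusted p = 0.00928).

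**Figure D3:**
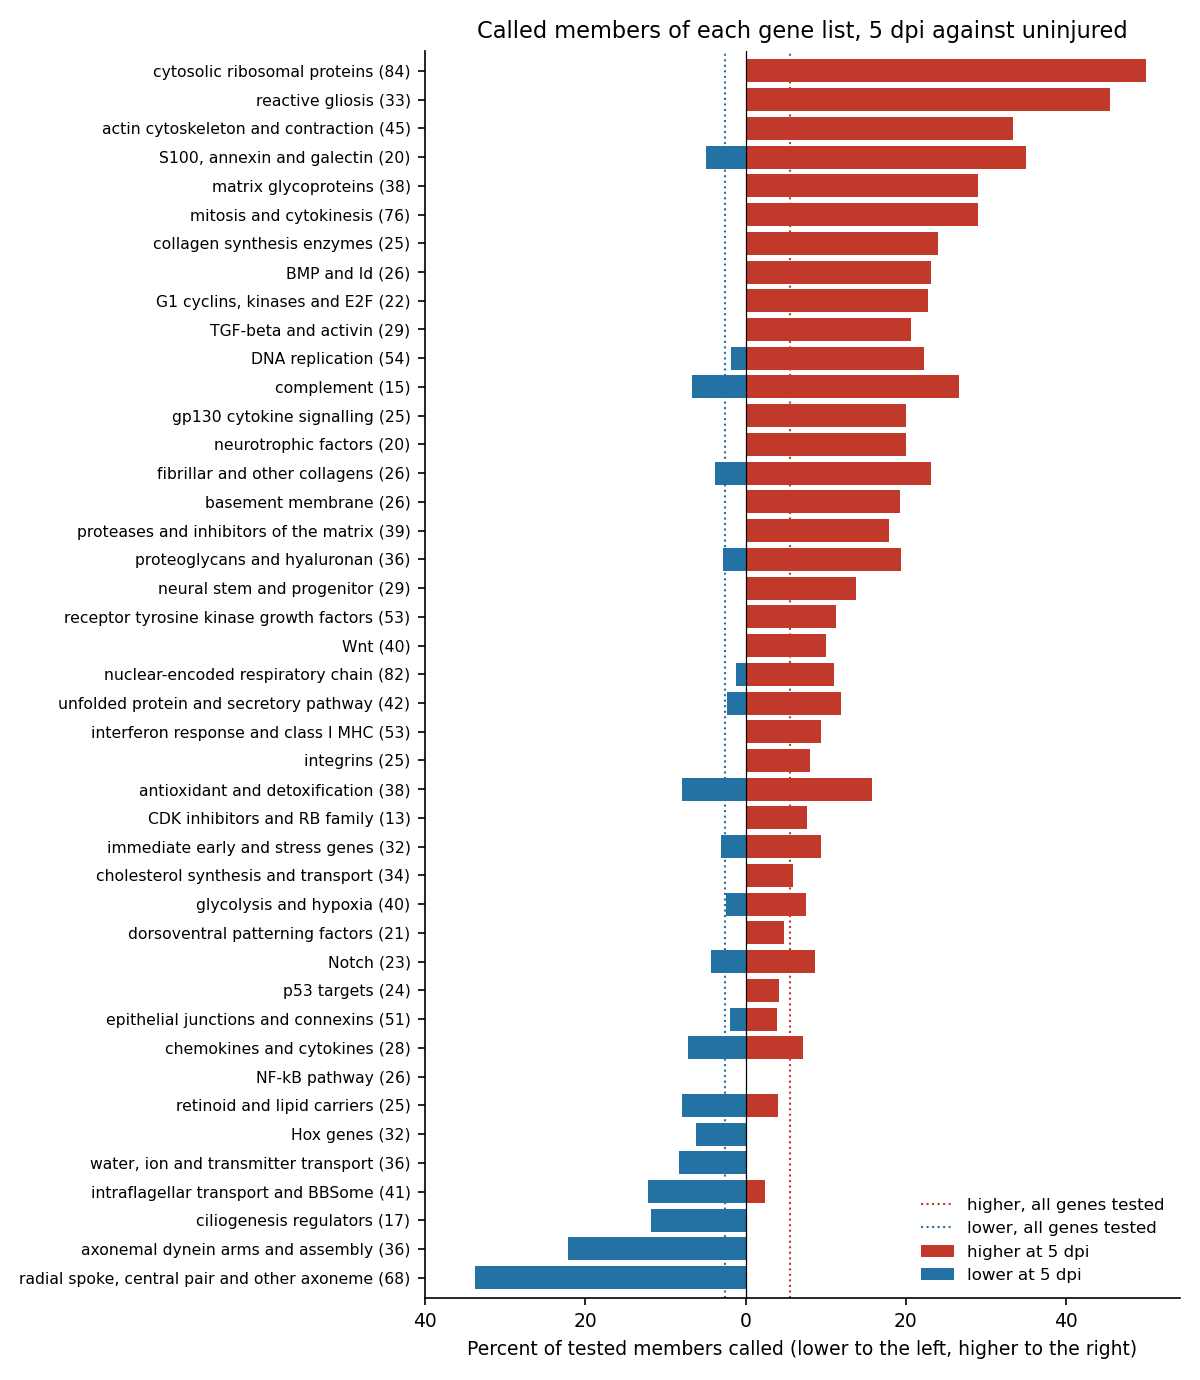
Percent of tested members called higher (right) and lower (left) at 5 dpi for each of the 43 gene lists that are not cell type markers, with the number of tested members in brackets and the shares over all genes tested as dotted lines. Ribosomal and gliosis genes have the longest bars to the right, and axoneme genes have the longest to the left.

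Among signalling genes, the BMP and Id list had 6 of 26 higher (4 without 5 dpi replicate 1, 2 without replicate 2) and a median of 2.17. Id3, an inhibitor of helix-loop-helix factors and a BMP target, had 891 and 2216 at 5 dpi and was listed at 0 in both uninjured libraries (adjusted p = 0.00218). Its relative Id1 read 647 and 798 at 5 dpi, against 2.8 and 2.1 in uninjured cells (adjusted p = 0.0449), and Id4 read 1969 and 3029 at 5 dpi, against 5113 and 4853 in uninjured cells (adjusted p = 0.169), without a call. The ligand Bmp6 had 158 and 206 at 5 dpi, against 1 and 0 in uninjured cells (adjusted p = 0.0121), the receptor-activated Smad1 had 1665 and 1276 at 5 dpi, against 331 and 374 in uninjured cells (adjusted p = 0.0435), and the secreted BMP antagonist Nbl1 had 1036 and 1204 at 5 dpi, against 35.2 and 46.1 in uninjured cells (log2 fold change 4.75 ± 0.44, adjusted p = 0.00179). Ligand, effector, antagonist and target were all among the called genes, and whether BMP signalling changed was not tested.

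In the TGF-beta and activin list 6 of 29 rose (3 without 5 dpi replicate 1, 4 without replicate 2). The ligand Tgfb3 read 612 and 345 at 5 dpi, against 1.1 and 0.9 in uninjured cells (log2 fold change 7.85 ± 1.06, adjusted p = 0.0055), whereas Tgfb2 read 1067 and 749 at 5 dpi, against 269.9 and 229.8 in uninjured cells (adjusted p = 0.0816) and Tgfb1 stayed below 10 in all 4 libraries. Ltbp3, which holds latent TGF-beta in the matrix, had 1624 and 2032 at 5 dpi, against 319 and 383 in uninjured cells (log2 fold change 2.37 ± 0.33, adjusted p = 0.00597). Of 40 Wnt genes 4 rose, or 10% called, against 8.18% of all genes tested. The ligand Wnt7b had 357 and 728 at 5 dpi and was listed at 0 in both uninjured libraries (adjusted p = 0.000384). Ctnnb1, beta-catenin, read 8158 and 11979 at 5 dpi, against 3698 and 3280.2 in uninjured cells (adjusted p = 0.00932). Apcdd1, a membrane inhibitor of Wnt signals, had 105 and 231 at 5 dpi and 0 in both uninjured libraries (adjusted p = 0.00843). Notch genes were near background, with 2 higher and 1 lower of 23, and 0 higher without 5 dpi replicate 2 (limma, 4 at an unadjusted p under 0.05). The Notch ligand-like Dner read 2397 and 3234 at 5 dpi, against 8882 and 8493 in uninjured cells (adjusted p = 0.019).

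Growth factor and cytokine receptors changed in part. Of 53 receptor tyrosine kinase genes 6 were higher, or 11.3% called, against 8.18% of all genes tested. Fgfr2 read 993 and 1411 at 5 dpi, against 241 and 241 in uninjured cells (log2 fold change 2.29 ± 0.35, adjusted p = 0.00826), and Met, the receptor of hepatocyte growth factor, read 246 and 89.3 at 5 dpi, against 0 and 0.8 in uninjured cells (log2 fold change 6.74 ± 0.84, adjusted p = 0.00392). The feedback inhibitor Spry1 had 293 and 238 at 5 dpi, against 2.3 and 0.9 in uninjured cells, and the ERK phosphatase Dusp6 had 421 and 283 at 5 dpi, against 4 and 5.1 in uninjured cells, and both are known as readouts of ERK signalling. Of 25 gp130 cytokine genes 5 rose (2 without 5 dpi replicate 1, 3 without replicate 2), among them the ligands Cntf, at 1064 and 975 at 5 dpi, against 110 and 97.9 in uninjured cells (adjusted p = 0.0226), and Clcf1, at 216 and 74.8 against 0 in both uninjured libraries (adjusted p = 0.00991). Their feedback gene Socs3 was not called (2511 and 1752 at 5 dpi, against 2787 and 3114 in uninjured cells, adjusted p = 0.451). Neurotrophic factor genes had 4 of 20 higher (1 without 5 dpi replicate 1, 2 without replicate 2). Besides Cntf and Clcf1 these were Gdnf, with 61.4 and 117 at 5 dpi, and the neuropeptide precursor Vgf, with 494 and 920.2, both listed at 0 in the uninjured libraries (adjusted p = 0.0458 and 0.00227).

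Immune lists differed in how many members were called, against 8.18% of all genes. None of 26 NF-kB pathway genes was called (limma), while 4 were higher and 2 lower at an unadjusted p under 0.05. Chemokines and cytokines counted 2 higher and 2 lower of 28: the TNF receptors Tnfrsf1a and Tnfrsf12a rose, and the membrane chemokine Cx3cl1 and chemerin, Rarres2, fell. Without 5 dpi replicate 1 none of the 28 was called (limma, 3 higher and 2 lower at an unadjusted p under 0.05). Rarres2 read 3434 and 4805 at 5 dpi, against 21844 and 20869 in uninjured cells (log2 fold change -2.39 ± 0.40, adjusted p = 0.0111). Of 15 complement genes 4 were higher (2 without 5 dpi replicate 1, 3 without replicate 2) and 1 lower, with C3 at 274 and 819 against 0 in both uninjured libraries (adjusted p = 0.00583), and clusterin, Clu, at 37054 and 39614 at 5 dpi, against 87361 and 86331 in uninjured cells (adjusted p = 0.0307). C1ql1, counted in that list by name, is a synaptic C1q-like protein. The interferon and MHC class I list counted 5 higher of 53 (1 without 5 dpi replicate 1, 3 without replicate 2), with B2m, the light chain of class I molecules, at 13107 and 5653 at 5 dpi, against 1220.2 and 1112 in uninjured cells (log2 fold change 2.88 ± 0.49, adjusted p = 0.0122).

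Among identity lists other than those of cilia, 13.8% of neural stem and progenitor genes and 18.8% of neuron markers were called. For oligodendrocyte progenitor markers the share was 6.25%, against 8.18% of all genes tested. In the neural stem and progenitor list 4 of 29 rose (3 without 5 dpi replicate 1, 2 without replicate 2), among them the transcription factor Sox4 at 1966 and 2514 at 5 dpi, against 492 and 549 in uninjured cells (adjusted p = 0.0172), the RNA-binding protein Msi2 at 2866 and 3261 at 5 dpi, against 1133 and 1142 in uninjured cells (adjusted p = 0.0102), and the gliogenic factor Nfia at 9938 and 14176 at 5 dpi, against 5927 and 6247 in uninjured cells (adjusted p = 0.0288). Sox2 read 1709.7 and 2378 at 5 dpi, against 1869.7 and 1885 in uninjured cells (adjusted p = 0.911), and Sox9 read 6795 and 8120.3 at 5 dpi, against 9472 and 10905 in uninjured cells (adjusted p = 0.189). Of 16 tested oligodendrocyte progenitor markers 1 was called, C1ql1, at 100.3 and 300.4 against 0 in both uninjured libraries (adjusted p = 0.0105). Olig1, another of them, stood at 64.6 and 1159 at 5 dpi, against 0 and 0.9 in uninjured cells (adjusted p = 0.111), with replicate 2 far above the other 3 libraries, and Sox10 was listed at 0 in all 4. That list took 0.0118% and 0.0288% of summed values at 5 dpi, against 0.0149% and 0.0138% in uninjured cells. Of 16 neuron markers 3 rose (Uchl1, Gap43 and Stmn2), while Snap25 read 0 and 3.5 at 5 dpi, against 16.7 and 13.7 in uninjured cells (adjusted p = 0.437). The growth cone protein Gap43 had 865 and 1248 at 5 dpi, against 4.1 and 7.7 in uninjured cells (log2 fold change 7.24 ± 0.69, adjusted p = 0.00218).

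Called transport genes were lower, while metabolic genes were called in both directions. The transport list (8.33% called) and the glycolysis list (10%) lay near the 8.18% of all genes tested. In the water, ion and transmitter transport list 3 of 36 were lower (3 without 5 dpi replicate 1, 1 without replicate 2), among them the glycine transporter Slc6a9 and the potassium channel Kcnn3. Slc6a9 read 236 and 75.1 at 5 dpi, against 962 and 891 in uninjured cells (log2 fold change -2.79 ± 0.63, adjusted p = 0.0329), and Kcnn3 read 1428 and 1515 at 5 dpi, against 3510.4 and 3701 in uninjured cells (log2 fold change -1.29 ± 0.25, adjusted p = 0.0197). The glucose transporter Slc2a1, which stands in both the glycolysis and the endothelial list, read 2876 and 3190.5 at 5 dpi, against 14630.5 and 15242 in uninjured cells (log2 fold change -2.30 ± 0.21, adjusted p = 0.00173), while the endothelial gene Pecam1 read 22 and 23.9 at 5 dpi, against 41.3 and 67.9 in uninjured cells. In the glycolysis list the platelet isoform of phosphofructokinase, Pfkp, and lactate dehydrogenase, Ldha, were among 3 of 40 that rose (2 without 5 dpi replicate 1, 1 without replicate 2), with Pfkp at 860.4 and 496 at 5 dpi, against 4.9 and 1.3 in uninjured cells and Ldha at 5676 and 4154 at 5 dpi, against 2053 and 1976 in uninjured cells. Antioxidant genes split into 6 higher (2 without 5 dpi replicate 1, 2 without replicate 2) and 3 lower of 38. Gpx3, a secreted glutathione peroxidase, read 6903 and 7526 at 5 dpi, against 378 and 384 in uninjured cells (log2 fold change 4.24 ± 0.51, adjusted p = 0.00368), and Gstm1, a glutathione transferase, read 1838 and 1904 at 5 dpi, against 8610.2 and 8429 in uninjured cells (log2 fold change -2.19 ± 0.22, adjusted p = 0.00225). In the list of retinoid and lipid carriers 2 of 25 were lower, Rarres2 as given above and neuronatin, Nnat, at 17858 and 23152 at 5 dpi, against 68747 and 70728 in uninjured cells (adjusted p = 0.0318). Neither passed without 5 dpi replicate 1, where no carrier was called lower (limma, 3 lower at an unadjusted p under 0.05).

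The genes of steepest change lay partly outside these lists. Besides matrix genes, the 15 highest folds took in Nupr1, a stress-induced chromatin protein, at 8058 and 3656 at 5 dpi, against 8 and 1.1 in uninjured cells (log2 fold change 9.93 ± 1.27, adjusted p = 0.00434), Emp3, a tetraspan membrane protein, at 1270.1 and 925 at 5 dpi, against 0 and 1.9 in uninjured cells (log2 fold change 9.12 ± 0.55, adjusted p = 0.000384), and Piezo2, a mechanically gated channel, at 888 and 612 at 5 dpi, against 1.3 and 0 in uninjured cells (log2 fold change 8.80 ± 1.20, adjusted p = 0.00566). Chl1, a neural adhesion molecule, had 1034 and 1964 at 5 dpi and 0 in both uninjured libraries. At the other end stood the transcription factor Hlf, at 16.2 and 57 at 5 dpi, against 673 and 869 in uninjured cells (log2 fold change -4.61 ± 0.94, adjusted p = 0.0229), and the calcium-binding protein Calb1, at 207 and 788 at 5 dpi, against 5367 and 4984 in uninjured cells (log2 fold change -3.67 ± 0.79, adjusted p = 0.027). Hoxd10 was listed at 0 in both 5 dpi libraries and read 262 and 268 in uninjured cells (limma, adjusted p = 0.00529). It was 1 of 2 Hox genes called of 32 beside Hoxa11, or 6.25% called, against 8.18% of all genes tested. The activity-regulated gene Arc was also at 0 at 5 dpi, against 509 and 544 in uninjured cells (adjusted p = 0.0236). Fos and Egr1, other immediate early genes, were not called.

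Time after injury was addressed by setting 5 dpi against 1 dpi, where 184 genes were higher (1.16%) and 227 lower (1.44%), 411 in all (2.6%). This count is fragile: without 5 dpi replicate 2 limma called 0 genes (1946 at an unadjusted p under 0.05, lowest adjusted p = 0.0505), without 1 dpi replicate 1 it called 31 and without 1 dpi replicate 2 it called 2. Of the 886 genes higher than in uninjured cells, 78 were also higher than at 1 dpi, 39 were lower and 769 were not called between the 2 times. Of the 407 lower genes, 22 were lower than at 1 dpi, none was called higher and 385 were not called. The comparisons share the 5 dpi libraries.

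Part of the matrix genes were higher at 5 dpi than at 1 dpi. Of 38 matrix glycoprotein genes 6 were higher at 5 dpi than at 1 dpi, with a list median of 2.04. Fn1 read 34343 and 15673 at 5 dpi, against 239.6 and 796 at 1 dpi (log2 difference of 5 dpi from 1 dpi 5.73 ± 0.56, adjusted p = 0.00722). For Sparc the values were 32083 and 29351 at 5 dpi, against 8128 and 6367 at 1 dpi (log2 difference of 5 dpi from 1 dpi 2.09 ± 0.25, adjusted p = 0.0138), and for Col1a1 they were 842 and 673, against 5.6 and 10.8 at 1 dpi (log2 difference of 5 dpi from 1 dpi 6.42 ± 0.73, adjusted p = 0.0133). Htra4, Lama1 and Apcdd1 were listed at 0 at 1 dpi as in uninjured cells. Id3 read 891 and 2216 at 5 dpi, against 63.5 and 14.6 at 1 dpi (adjusted p = 0.0248). Col1a1 is also 1 of the 10 tested fibroblast and meningeal markers, of which 4 were higher at 5 dpi than at 1 dpi, and their share of summed values was 0.0537% and 0.0374% at 5 dpi, against 0.107% and 0.0029% at 1 dpi. For the pericyte and smooth muscle markers it was 0.315% and 0.0487% at 5 dpi, against 0.0058% and 0.0115% at 1 dpi. Their part in the matrix differences was not tested.

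Growth and replication genes showed the reverse order. Of 54 DNA replication genes 12 were lower at 5 dpi than at 1 dpi, with a median of -1.46, while of 76 mitosis genes none was called and the median was 0.29 (limma, with 1 higher and 5 lower at an unadjusted p under 0.05). Pcna, the replication clamp, read 1858 and 2706 at 5 dpi, against 6109 and 6088 at 1 dpi and 782 and 741 in uninjured cells. Ccnd1, the G1 cyclin D1, read 283 and 148 at 5 dpi, against 4133 and 3403 at 1 dpi (adjusted p = 0.0156) and 97.5 and 116 in uninjured cells. Of 84 ribosomal protein genes 38 were lower at 5 dpi than at 1 dpi, with a median of -0.68, so the list lay between the uninjured and the 1 dpi level. Cilia genes held their lower level: no member of the dynein or the axoneme list was called between the 2 times (limma, medians 0.27 and 0.16, with 2 and 4 higher at an unadjusted p under 0.05), and Ccdc153 read 7363 and 4456 at 1 dpi. Myelin genes were uneven at 1 dpi: the oligodendrocyte gene Mobp had 183 and 423 at 5 dpi, against 2605 and 118 at 1 dpi (adjusted p = 0.741). The part of myelin RNA in these differences was not tested.

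**Figure D4:**
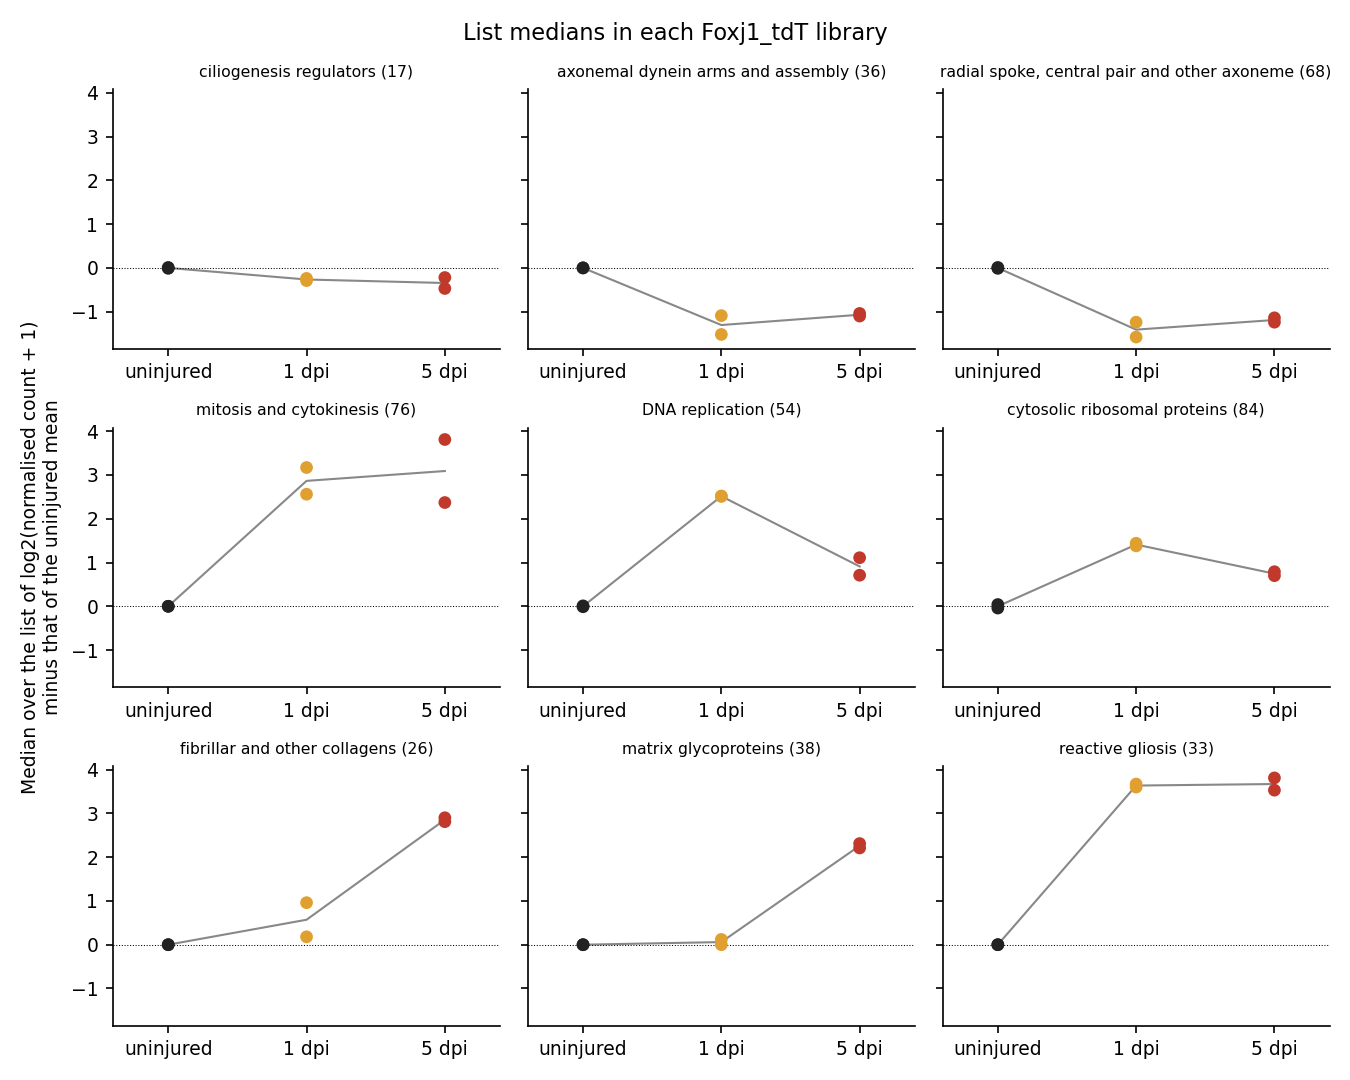
Median over each of 9 gene lists of log2(normalised count + 1) minus that of the uninjured mean, for each Foxj1_tdT library without injury, at 1 dpi and at 5 dpi, with the line through the mean of each pair. Collagen and matrix medians at 5 dpi lie well above those at 1 dpi, replication and ribosomal medians lie below them, and gliosis and axoneme medians lie close to them.

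How far the response was shared was read in Foxj1_Olig2_tdT cells, whose libraries are separate from the 4 above. Both contrasts come from the same fit and share each gene's estimate of spread, so a gene of low spread is favoured in both. Direction alone does not use that estimate. The log2 fold change there was above 0 for 89.2% of the 886 higher genes, 7.62% of the 407 lower ones and 52.7% of genes not called. There, 2217 genes were higher (14%) and 1831 lower (11.6%) at 5 dpi than without injury, 25.6% in all. Of the 886 genes higher in Foxj1_tdT cells 562 were also called higher there, which is 63.4% of these and 25.3% of the higher genes in Foxj1_Olig2_tdT cells, and 7 were called lower. Of the 407 lower genes 303 were also lower (74.4%, and 16.5% of the lower genes in Foxj1_Olig2_tdT cells), and 4 were higher. Among genes not called in Foxj1_tdT cells 11.4% were higher and 10.5% lower. Vim, Fn1 and Ccdc153 were among those called in both.

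The difference between the 2 genotypes was itself tested. It was called for 222 genes (1.4%), with 164 above 0 (1.04%) and 58 below 0 (0.367%). Of these 69 were among the genes higher at 5 dpi in Foxj1_tdT cells and 55 among the lower ones. Without Foxj1_tdT 5 dpi replicate 1 that count was 3, and without replicate 2 limma called 0 (2074 at an unadjusted p under 0.05). Of the 190 higher genes listed at 0 in both uninjured Foxj1_tdT libraries, 35 had values of at least 50 in both uninjured Foxj1_Olig2_tdT libraries and 52 were at 0 there too. Hoxd10 was at 0 in all but 1 of the 10 other libraries, where it read 1.9.

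The 5 dpi libraries also differed from each other in a patterned way, and the genes named for it were chosen after their values were seen. Replicate 1 had more of the contractile genes Acta2 and Tagln, of Hspb1 (22132 and 5069.9), Col6a2 (1566 and 593) and Gfap. Replicate 2 had more Aqp4 (1949 and 4197), Rfx4 (1249.5 and 3596), Ptprz1 (1051 and 2735), Id3 and Olig1. Vim and Foxj1 were level between them. For Aqp4 and Rfx4 the uninjured libraries, at 2521 and 2463 and at 1860.2 and 1708, lay between the 5 dpi libraries, so the groups overlap and neither was called.

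**Figure D5:**
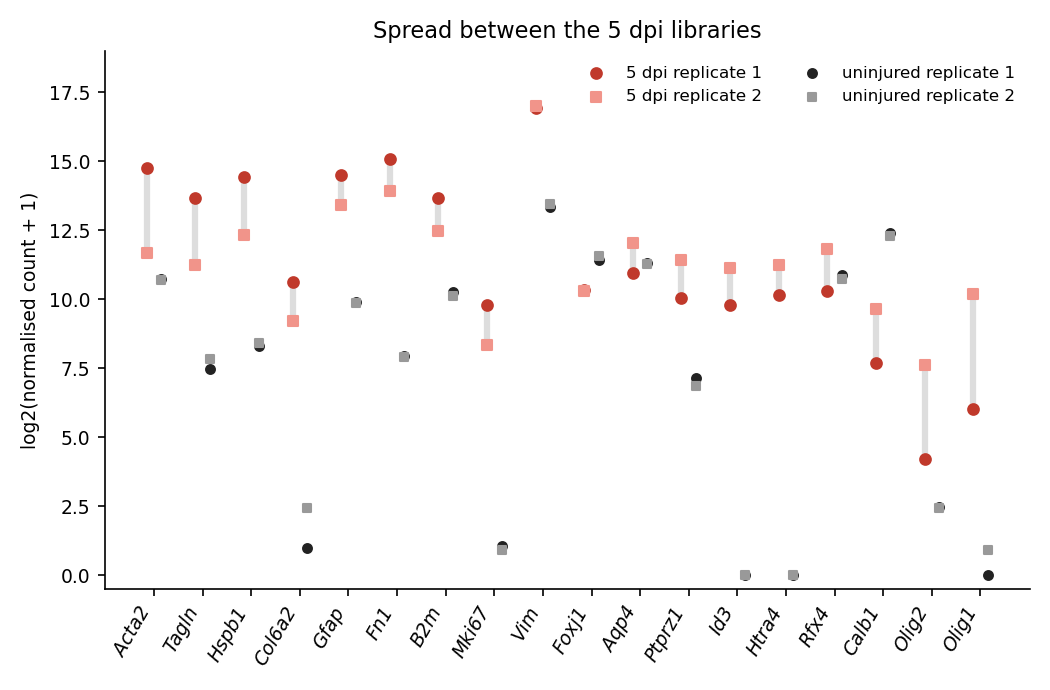
Level of 18 genes in the 5 dpi libraries (left point of each gene) and the uninjured libraries (right point), as log2(normalised count + 1), ordered roughly from genes higher in 5 dpi replicate 1 to genes higher in replicate 2. Grey bars join the 5 dpi libraries: they are long for Acta2, Olig2 and Olig1 and too short to see for Vim and Foxj1, while the uninjured points lie almost on each other for most genes.

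Accessibility of these genes before injury was described in single-cell ATAC data of 1 uninjured spinal cord sample, which has no replicate and no test. The deposited classes named ependymal held 754 of its 1084 cells, with a median of 27552 cut sites per cell. A peak lay within 1000 bases of either end of the gene for 92.4% of 876 higher genes, 88% of 399 lower genes and 84.5% of 13989 genes not called. Among genes whose uninjured RNA mean was under 10, that share was 91.5% of 377 higher genes and 67.6% of 2260 genes not called. Most genes of this low level in uninjured Foxj1_tdT RNA that rose thus had a nearby peak. The higher and the not called genes of this low level were not matched for their level in the other libraries, so their shares are not like for like. Peaks were those of the whole sample, so a nearby peak need not be open in ependymal cells. The median share of ependymal cells with a cut there was 20% for these higher genes and 5.31% for those not called. For higher genes with an uninjured mean of at least 10 it was 34%. At the promoter itself, Fgfrl1, a receptor-like gene without a kinase domain and at 0 in both uninjured RNA libraries, had a cut in 56.4% of ependymal cells (95% Clopper-Pearson interval 52.7 to 59.9), and Vcan had one in 45.4% (41.8 to 49). Cd44 had one in 12.5% (10.2 to 15) and Tnc in 6.9% (5.19 to 8.95). Nupr1 had one in 1.59% (0.825 to 2.76), and no peak lay at the promoters of Col6a1 and Emp3. Among genes active before injury, Vim had a cut in 78% (74.9 to 80.9) and Ccdc153 in 56.4% (52.7 to 59.9). The promoter of Olig2, a gene of another lineage, had a cut in 2.92% of ependymal cells (1.84 to 4.38). Intervals cover counting error only, and a cut site in a cell depends on its depth.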

How the data were processed

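Bulk RNA values (unit: signal) are gene-level normalised counts with 1 decimal, which the authors deposited as a single table. The counting program and the scaling are not given in the sources used here. Whole reads could not be recovered, and true depth is therefore unknown. For single-cell ATAC the authors deposited a count of cut sites for each peak in each cell, with class names of the cells. The submitters' processing notes name mm10. The 12 bulk ATAC libraries and the 6 single-cell RNA samples were not analysed here.

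Samples were grouped by their titles. A pseudocount of 1 was added before the log2 transform, and models were fitted by limma 3.58.1 (R 4.3.3, trended empirical Bayes, 6 group means, 5 residual degrees of freedom). The near-identical uninjured Foxj1_tdT libraries entered as their mean, a lone entry assumed to vary like libraries of other groups. The table holds 16301 genes. Tested were the 15811 that reached 10 in 2 or more of the 12 libraries, and a gene that passed this filter only through the group where it is high had to differ. Calls used a Benjamini-Hochberg adjusted p under 0.05 in each contrast. The procedure was tested on simulated data. Lists were described by counts and medians, with no set test.

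Members and lists were chosen with earlier results of these data known. The rule for named genes took Foxj1 and Olig2, the 15 highest and 15 lowest called log2 fold changes with a group mean of 50 or more and no group at 0 throughout, up to 8 called genes listed at 0 in 1 group, and the 5 lowest adjusted p among called members of each list (207 genes). Members that were not called are given with values. Gene names that look like dates (23) stayed in the fit and are not named. A few other genes stayed in the fit and the counts and are not reported here.

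Sequences are RefSeq promoters of build GRCm38.p6, matched by symbol for 11614 of the genes tested (73.5%), so a comparison of called sets by promoter window is void. Peaks within 1000 bases of either gene end (15264 genes, 96.5%) were used instead, a choice made after seeing the data, as was the comparison with single libraries of Foxj1_Olig2_tdT cells. Tables were handled with pandas 2.3.3, numpy 2.4.6 and scipy 1.17.1, and figures with matplotlib 3.10.9.

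Alternatives were the uninjured replicates as 2 libraries, a pseudocount of 8, no filter, median-of-ratios and quantile scaling, the replicate number as a block, only the 6 Foxj1_tdT libraries, and each library left out in turn.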

Additional observations from a re-analysis of the deposited data

Results flagged for a closer look

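The change from uninjured to 5 dpi differed between Foxj1_tdT and Foxj1_Olig2_tdT cells by a test of the difference itself (limma, adjusted p under 0.05) for 222 genes, of which those named follow. A positive difference means a change in Foxj1_tdT cells that lies above that in Foxj1_Olig2_tdT cells, on the log2 scale, and the count falls to between 0 and 3 without either Foxj1_tdT 5 dpi library.

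Genes that rose in Foxj1_tdT cells and showed a smaller or opposite change in Foxj1_Olig2_tdT cells had positive differences. These were 8.83 for Olfml2b, 7.91 for Smoc2, 6.78 for Cobl, 6.57 for Taf13, 6.31 for Vcan, 6.18 for Gsn, 6.17 for Gins3, 5.86 for Pfkp, 4.95 for Nbl1, 4.55 for Col4a1, 4.37 for Wnt7b, 3.80 for Gpx3 and 3.28 for Fgfr2. Each of them read higher in uninjured Foxj1_Olig2_tdT cells than in uninjured Foxj1_tdT cells. Taf13 read 87.9 and 437 without injury there, against 0.7 and 0.6 in uninjured Foxj1_tdT cells. Its 5 dpi values were 1076 and 1324 there, against 972 and 924 in Foxj1_tdT cells. Olfml2b at 5 dpi read 108 and 278 there, against 1946 and 1002.5 in Foxj1_tdT cells. The replication gene Gins3 read 93.6 and 62.4 at 5 dpi, against 66.3 and 79.8 without injury in Foxj1_Olig2_tdT cells. What part of these differences is particular to the uninjured Foxj1_tdT pair was not tested. Col4a1, a basement membrane collagen, read 113 and 212 at 5 dpi, against 390 and 331.5 in uninjured Foxj1_Olig2_tdT cells.

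Genes that fell in Foxj1_tdT cells and fell further in Foxj1_Olig2_tdT cells also had positive differences. They were 2.45 for Dnali1, 2.33 for Kcnn3, 2.04 for Dnah12, 2.02 for Fam183b, 1.82 for Spag16 and 1.17 for Dnajc3. The inner arm dynein gene Dnali1 read 683 and 422 at 5 dpi, against 7479 and 7264 in uninjured Foxj1_Olig2_tdT cells.

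Negative differences were seen for Gap43 at -4.96 and Stmn1 at -2.23, which rose in both genotypes and by more in Foxj1_Olig2_tdT cells, for Stag3 at -9.90, and for Hoxd10 at -8.05, which was listed at 0 in all 4 of those Foxj1_Olig2_tdT libraries.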

How the results depend on the processing

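With the uninjured replicates as 2 libraries the counts were 3642 genes for 5 dpi against uninjured cells, 925 for 5 dpi against 1 dpi and 1151 for the difference between genotypes, and with the replicate block beside that they were 3514, 796 and 1031. Deviations of same-numbered 5 dpi and uninjured Foxj1_tdT libraries had a correlation of 0.00527. With a nearly identical uninjured pair this value cannot tell whether replicate numbers mark a batch, and other groups were not compared. With the 6 Foxj1_tdT libraries alone limma called 0 genes in both time comparisons (3507 and 2610 at an unadjusted p under 0.05). Leaving out each library gave 601 to 1377 genes for 5 dpi against uninjured cells, 0 to 238 against 1 dpi and 0 to 360 for the difference between genotypes, where 161 were higher and 199 lower without Foxj1_Olig2_tdT uninjured replicate 2 and 49 and 42 without replicate 1, against 164 and 58 with all libraries. A pseudocount of 8, no filter, median-of-ratios and quantile scaling gave 1274 to 1328 genes, and quantile scaling shifted the median of all genes to -0.08. By promoter window 94.2% of higher genes and 88.5% of genes not called had a peak, and within 1000 bases of the start 96.2% and 90.2%, in under 80% of genes.

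Of the 207 named genes none changed direction under these alternatives. In all of them the groups did not overlap, so leaving out a 5 dpi or uninjured library could not reverse the sign. The call was lost for 79 without 5 dpi replicate 1, for 71 without replicate 2, for 206 with the 6 Foxj1_tdT libraries alone, and for at most 8 under any other setting. Olig2 gained a call with the uninjured replicates as 2 libraries (adjusted p = 0.027, limma), with the replicate block beside that (0.0364) and without 5 dpi replicate 1 (0.037). With 2 libraries a group and unknown depth, small changes in low genes are beyond these data.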
